A study of Mus musculus with 6 samples.

Results

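A set of 10 genes of the fibroblast growth factor (FGF) system were followed in HC11 cells, a cloned line of mouse mammary epithelial cells, grown in medium with or without BMP7, a ligand of the bone morphogenetic protein family. They were the receptors *Fgfr1*, *Fgfr2*, *Fgfr3*, *Fgfr4* and *Fgfrl1*, the ligands *Fgf1*, *Fgf2*, *Fgf7* and *Fgf10*, and the receptor adaptor *Frs2*, picked by gene name from the 55809 genes in the count table. The study asked how FGF and BMP signaling act between cells of the mammary gland, and it included loss of *Fgfr2* in mammary epithelium, whereas these libraries carried no change in any FGF gene. RNA was sequenced from 3 libraries of HC11 cells in medium without BMP7 (Ctrl) and 3 libraries of HC11 cells in medium with BMP7. The methods describe HC11 cells that were starved and then given BMP7 for a shorter or a longer time before extraction, and which of these times was sequenced was not given in the sources used here. The labels did not say whether libraries of a group came from separate cultures, so that p-values measured only the spread between these libraries, which may be technical.

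FGF ligands bind receptor tyrosine kinases at the cell surface together with heparan sulfate chains, and the activated receptors signal through the docking protein FRS2 to the Ras-MAPK cascade. FGFR1, FGFR2 and FGFR3 each occur in an epithelial (IIIb) and a mesenchymal (IIIc) splice form that differ in the ligands they bind. In the mammary gland, FGF7 and FGF10 made by the stroma act on the IIIb form of FGFR2 in the epithelium. The counts were summed over each gene and did not separate the splice forms.

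Between 14607938 and 23748970 fragments were assigned to genes in a library, and the BMP7 libraries are named here by their column numbers 1, 3 and 4. BMP7 library 1 stood apart from the other BMP7 libraries on the second axis of a multidimensional scaling plot, at -1.05 against 0.33 and 0.54, with the Ctrl libraries between -0.02 and 0.12. Levels are given as CPM, counts scaled to a common library total. Of the epithelial keratins, *Krt5* lay at 2423 to 2685 CPM in 5 libraries and at 2818 CPM in BMP7 library 1. *Krt14* lay at 3394 to 3631 CPM in Ctrl and 4284 to 5258 CPM with BMP7. *Krt18* lay at 48.5 to 51.1 CPM in Ctrl and 27.1 to 35.7 CPM with BMP7. *Krt8* lay at 57.9 to 66.2 CPM in Ctrl and 64.4 to 68.9 CPM with BMP7, and *Krt19* did not pass 0.356 CPM. By the rule given below, 5.99% of all genes tested were called higher with BMP7 and 5.38% lower. The summed level of 8 luminal and simple epithelial markers was 1775 to 1801 CPM in Ctrl and 1432 to 1453 CPM with BMP7. Of the 7 tested, 4 were called lower and none higher. Most of this sum was *Cdh1* (970 to 992 CPM in Ctrl, 787 to 839 CPM with BMP7) and *Epcam*. *Elf3* lay at 9.49 to 11.3 CPM in Ctrl and 10.8 to 12.2 CPM with BMP7. The sum of 6 basal markers was 6333 to 6476 CPM in Ctrl and 7143 to 8482 CPM with BMP7. Of the 6 tested, 3 were called higher. *Krt5* and *Krt14* made up most of this sum, and *Acta2* lay lower with BMP7 (0.139 to 0.331 CPM) than in Ctrl (0.530 to 0.737 CPM). Milk protein genes, which HC11 cells make only after hormonal differentiation, were at or under 3 counts in every library for 5 of 5 genes. The sum of 8 adipocyte markers was 11.2 to 18.9 CPM in Ctrl, 20.6 CPM in BMP7 library 1 and 68.9 and 60.8 CPM in BMP7 libraries 3 and 4. That of 8 macrophage and leukocyte markers was 35.7 to 39.3 CPM in Ctrl and 33.2, 12.8 and 12.1 CPM in the BMP7 libraries, and of the endothelial markers *Pecam1* alone was tested, at 12.98 to 15.8 CPM in Ctrl and 23.7 to 25.7 CPM with BMP7, and the other 4 did not pass 0.356 CPM. All 6 tested adipocyte markers were called higher with BMP7, but BMP7 library 1 lay within the Ctrl range for *Adipoq*, *Car3* and *Cfd*. *Pecam1* was called higher and lay above all Ctrl libraries in every BMP7 library. Of the 7 tested macrophage and leukocyte markers, 2 were lower and none was higher. The part of all these markers in the FGF gene levels was not tested. In bulk RNA, fewer cells of a type and less RNA per cell cannot be told apart.

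The receptors *Fgfr3* and *Fgfr2* rose with BMP7, and none of the 8 genes tested was called lower. *Fgfr3* was 2.99-fold higher and *Fgfr2* was 1.30-fold higher than in Ctrl. *Fgfrl1* passed the adjusted p at a fold change of 1.19, just under the limit of 1.2, and *Fgfr1*, the most abundant of the receptors, was not called. Neither the ligands *Fgf1*, *Fgf2* and *Fgf7* nor the adaptor *Frs2* was called. *Fgfr4* and *Fgf10* had too few fragments to test.

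A gene was called when its adjusted p in edgeR's quasi-likelihood test (Benjamini-Hochberg over all 15733 genes tested) was under 0.05 and its fold change was over 1.2 in either direction. Of the 10 genes, 9 had a fragment in some library and 8 passed the filter on low counts. Of these 8, 2 were called, against 11.4% of all genes tested, with 5.99% called higher and 5.38% called lower. By adjusted p alone 3 of the 8 passed, all higher, against 13.7% of all genes. In 5 of the 8 the Ctrl and BMP7 libraries did not overlap, 3 higher and 2 lower with BMP7, which held for 29.8% of all genes tested. The median log2 fold change of the 8 was -0.02 and that of all genes tested was -0.01.

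**Figure D1:**
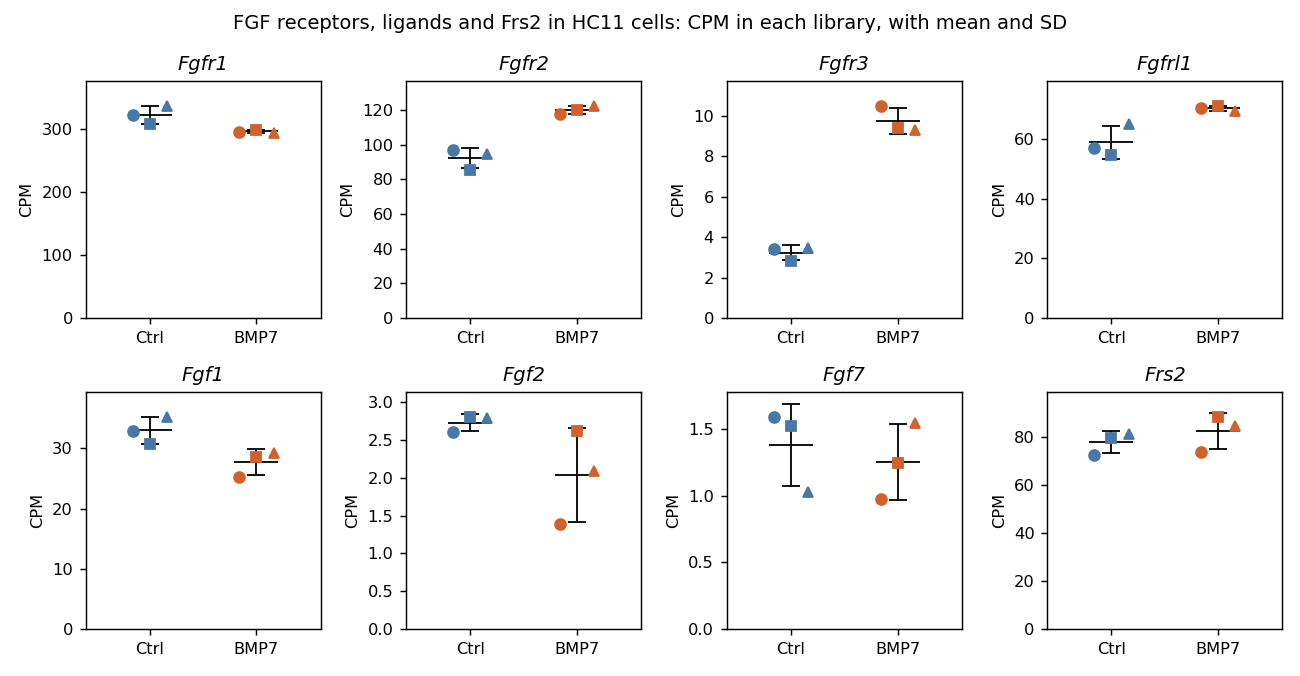
CPM (linear axis from 0) of the 8 FGF genes that passed the filter on low counts, in each of 3 Ctrl and 3 BMP7 libraries. Points are libraries (circle, square and triangle for Ctrl 1, 2 and 3 and for BMP7 1, 3 and 4), the wide bar is the mean and the error bar the SD. *Fgfr3*, *Fgfr2* and *Fgfrl1* lie higher in every BMP7 library than in any Ctrl library, *Fgfr1* and *Fgf1* lie lower, and the groups overlap in *Fgf2*, *Fgf7* and *Frs2*.

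*Fgfr3* encodes a receptor best known as a brake on growth of cartilage, and it also occurs in epithelia. It lies on chromosome 5 from 33879018 to 33894412 on the plus strand of the mm39 annotation, with 7158 bases of exon in 16 merged exons. It was counted 71, 57 and 71 times in Ctrl libraries 1, 2 and 3, and 150, 211 and 169 times in BMP7 libraries 1, 3 and 4. As levels these were 3.42, 2.80 and 3.47 CPM without BMP7 and 10.5, 9.38 and 9.31 CPM with it. The lowest BMP7 library lay well above the highest Ctrl library, and BMP7 library 1, the shallowest, was the highest of all. The log2 fold change was 1.58 (SE 0.15, 95% interval 1.26 to 1.91), a fold change of 2.99 with an interval of 2.39 to 3.75 (adjusted p = 1.8e-06, edgeR quasi-likelihood test, Benjamini-Hochberg). Of its exon bases, 998 (13.9%) are shared with *G630022F23Rik*, which was counted 0 to 2 times in a library. Fragments that fell on both genes were left out, so the *Fgfr3* level per exon length may be too low.

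*Fgfr2*, the receptor that takes up stromal FGF7 and FGF10 in the mammary epithelium, lies on chromosome 7 from 129764181 to 132725079 on the minus strand. It was counted 2010, 1739 and 1934 times in the Ctrl libraries and 1687, 2697 and 2215 times in BMP7 libraries 1, 3 and 4. Its levels were 96.8, 85.5 and 94.6 CPM without BMP7 and 118, 120 and 122 CPM with it. The BMP7 libraries were close together and all above the Ctrl libraries, among which library 2 was the lowest. Its log2 fold change was 0.38 (SE 0.06, 95% interval 0.24 to 0.51; adjusted p = 0.00058, edgeR quasi-likelihood test, Benjamini-Hochberg). The exon set of the annotation reached into *Ctbp2*, with which it shared 314 bases (3.04%), and *Ctbp2* had a log2 fold change of 0.10 and was not called.

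The sequences upstream of *Fgfr3* and *Fgfr2* are shown because these are the genes that rose. Each is the 250 bases before a RefSeq transcript start in GRCm38.p6, a build other than that of the counts, read 5′ to 3′ on the gene's own strand. Capitals mark matches to AGAC, the core letters bound by Smad proteins, and to GGCGCC, a GC-rich element of BMP-responsive genes, on either strand and without mismatch.
Fgfr3, chr5:33721474-33721723, plus strand: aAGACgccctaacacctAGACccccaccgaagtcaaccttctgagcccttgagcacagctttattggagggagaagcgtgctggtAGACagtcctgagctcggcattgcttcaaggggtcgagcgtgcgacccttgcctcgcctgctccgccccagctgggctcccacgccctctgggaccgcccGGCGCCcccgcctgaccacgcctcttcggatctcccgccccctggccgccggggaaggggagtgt
Fgfr2, chr7:130266809-130267058, minus strand: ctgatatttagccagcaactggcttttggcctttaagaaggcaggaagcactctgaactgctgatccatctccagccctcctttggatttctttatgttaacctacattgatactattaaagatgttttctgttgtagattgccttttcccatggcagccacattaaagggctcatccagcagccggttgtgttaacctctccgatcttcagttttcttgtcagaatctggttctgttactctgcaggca
The *Fgfr3* window held 3 matches to AGAC and 1 to GGCGCC, at 66.8% GC with 19 CpG dinucleotides. The *Fgfr2* window held no match to either, at 44% GC with 2 CpG dinucleotides. A second *Fgfr3* start in RefSeq had 1 match to GGCGCC and none to AGAC in its window. Of all 32851 windows of this length, 82.9% held AGAC and 9.59% held GGCGCC, and the median GC content was 52.4%. The ETS letters CCGGAAGT, in 2.88% of all windows, were found in neither gene and were found once each in the windows of *Fgfrl1* and *Frs2*. No window was taken for *Fgfr1* or *Fgf1*, so their upstream letters were not examined. These matches are a description of letters, not of binding.

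*Fgfr1* encodes the receptor that had the highest level here and lies on chromosome 8 from 26003670 to 26065734 on the plus strand. Its levels were 321, 307 and 335 CPM in Ctrl and 296, 299 and 293 CPM in BMP7 libraries 1, 3 and 4. All BMP7 libraries lay under all Ctrl libraries, but the nearest libraries of the groups were close. With BMP7 its log2 fold change was -0.12 (SE 0.06, 95% interval -0.24 to 0.01), and the call failed (adjusted p = 0.21, edgeR quasi-likelihood test, Benjamini-Hochberg). The 95% interval of its fold change ran from 0.845 to 1.00.

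*Fgfrl1* encodes a receptor that binds FGFs but has no tyrosine kinase domain inside the cell. It lies on chromosome 5 from 108840248 to 108854790. Its levels were 56.9, 54.7 and 65.0 CPM in Ctrl and 70.5, 70.9 and 69.3 CPM in the BMP7 libraries. Every BMP7 library was above every Ctrl library, and Ctrl library 3 was nearest to them. The log2 fold change was 0.25 (SE 0.07, 95% interval 0.10 to 0.41; adjusted p = 0.026, edgeR quasi-likelihood test, Benjamini-Hochberg). When 1 library at a time was left out, the adjusted p stayed under 0.05 in 2 of 6 fits and reached 0.15 without Ctrl library 2, and without Ctrl library 3 the gene was called at 0.33.

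*Fgfr4*, on chromosome 13 from 55300453 to 55316572, had no fragment in any of the 6 libraries. A count of 0 allows up to 3 counts, which is 0.133 CPM in the deepest library and 0.209 CPM in the shallowest, for counting error only.

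Per exon length, the receptors stood in the order *Fgfr1*, *Fgfrl1*, *Fgfr2* and *Fgfr3* in both groups. In Ctrl they lay at 32.5 ± 1.45, 21.2 ± 1.97, 8.94 ± 0.58 and 0.451 ± 0.0521 FPKM, the CPM divided by the exon length in kilobases (SD, n = 3). With BMP7 they lay at 29.9 ± 0.296, 25.2 ± 0.297, 11.6 ± 0.215 and 1.36 ± 0.0897 FPKM. The ranges of neighbouring receptors did not overlap in either group. In Ctrl, *Fgfr1* was above 89.3% of all genes tested, *Fgfrl1* above 82.4%, *Fgfr2* above 61.6% and *Fgfr3* above 10.04%. With BMP7 the share under *Fgfr2* was 68.5% and that under *Fgfr3* was 23.5%.

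The ratio of *Fgfr1* to *Fgfr2* levels, both in FPKM, was 3.47, 3.75 and 3.71 in the Ctrl libraries. With BMP7 it was 2.63, 2.61 and 2.51 in libraries 1, 3 and 4. The groups did not overlap, and the mean was 3.64 ± 0.151 in Ctrl and 2.58 ± 0.0632 with BMP7 (SD, n = 3). The log2 ratio differed by -0.50 (BMP7 minus Ctrl), with p = 0.1 in a two-sided exact permutation test, the smallest p that 3 libraries against 3 allow. The summed level of *Fgfr1*, *Fgfr2*, *Fgfr3* and *Fgfr4* was 41.9 ± 1.98 FPKM in Ctrl and 42.9 ± 0.225 FPKM with BMP7 (exact permutation p = 0.7, n = 3 in each group). Within that sum *Fgfr1* made up 77.6 ± 0.747% in Ctrl and 69.8 ± 0.4% with BMP7, *Fgfr2* 21.3 ± 0.692% and 27.0 ± 0.522%, and *Fgfr3* 1.07 ± 0.078% and 3.16 ± 0.217%. Each BMP7 library had a larger percentage of *Fgfr2* and of *Fgfr3* than any Ctrl library.

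**Figure D2:**
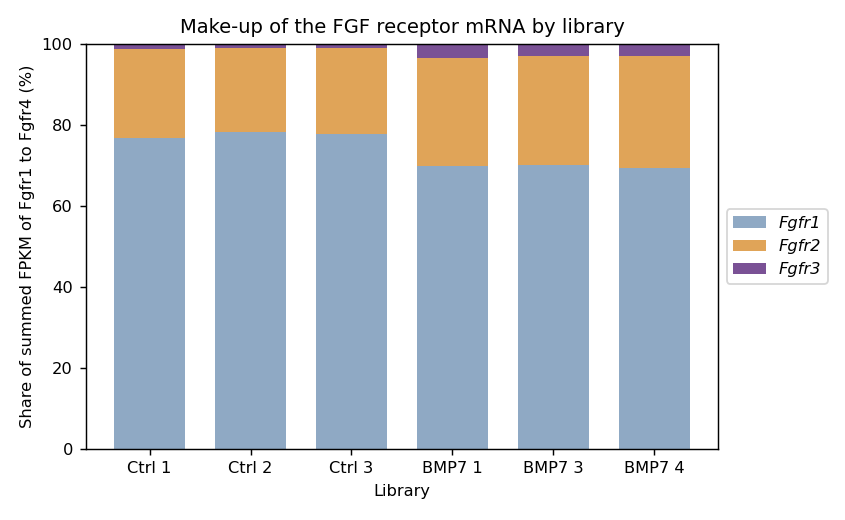
Levels of *Fgfr1*, *Fgfr2* and *Fgfr3* in each library as a percentage of the summed FPKM of the 4 kinase receptors (*Fgfr4* was at 0). *Fgfr1* made up a smaller percentage in each BMP7 library (69.3 to 70.1%) than in each Ctrl library (76.8 to 78.2%).

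*Fgf1* encodes a ligand without a signal peptide that can bind all the kinase receptors, and it was the most abundant of the ligands. It lies on chromosome 18 from 38971726 to 39062525. Its levels were 32.9, 30.8 and 35.2 CPM in Ctrl and 25.2, 28.5 and 29.3 CPM in BMP7 libraries 1, 3 and 4. Every BMP7 library lay under every Ctrl library, with BMP7 library 1 the lowest. Its log2 fold change was -0.25 (SE 0.08, 95% interval -0.43 to -0.07), and the adjusted p of 0.063 (edgeR quasi-likelihood test, Benjamini-Hochberg) missed the threshold. It passed with upper-quartile scaling, at -0.27 and an adjusted p of 0.044 by the same test.

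*Fgf2* encodes a ligand that likewise lacks a signal peptide and is held by heparan sulfate. It lies on chromosome 3 from 37402495 to 37464257 and was counted 54, 57 and 57 times in Ctrl and 20, 59 and 38 times in the BMP7 libraries. At 2.60, 2.80 and 2.79 CPM against 1.39, 2.62 and 2.09 CPM, the groups overlapped, with BMP7 library 1 by far the lowest. The log2 fold change was -0.39 (SE 0.25, 95% interval -0.92 to 0.14; adjusted p = 0.35, edgeR quasi-likelihood test, Benjamini-Hochberg). Without BMP7 library 1 the value was -0.20, without BMP7 library 3 it was -0.62, and in BMP7 library 1 alone it was -0.97. Of its exon bases 13.2% are shared with *Nudt6* and *Gm43439*. Fragments were counted without strand, and those that fell on several genes were left out, so the *Fgf2* level per exon length may be too low.

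*Fgf7* encodes keratinocyte growth factor, a stromal ligand of FGFR2 IIIb, and lies on chromosome 2 from 125876578 to 125933105. It was counted only 33, 31 and 21 times in Ctrl and 14, 28 and 28 times in BMP7 libraries 1, 3 and 4. These counts gave 1.59, 1.52 and 1.03 CPM and 0.976, 1.24 and 1.54 CPM, so the groups overlapped widely. The log2 fold change was -0.12 (SE 0.32), and its 95% interval of -0.80 to 0.55 leaves room for changes in either direction. Without BMP7 library 1 the value was 0.0044.

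*Fgf10*, the other stromal ligand of FGFR2 IIIb, was counted once in Ctrl library 1 and 4 and 2 times in BMP7 libraries 3 and 4, with no fragment in the remaining 3 libraries. It lies on chromosome 13 from 118806327 to 118928651. Its highest level, 0.178 CPM, was near the 0.133 CPM that 3 counts make in that library, and no fold change is given. The summed level of 8 fibroblast markers was 115 to 126 CPM in Ctrl and 103 to 122 CPM with BMP7. *Col1a1*, at 48.9 to 78.8 CPM, and *Pdgfra*, at 38.3 to 47.4 CPM, were the highest of them in every library, and *Lum* and *Dcn* lay at 0 to 0.667 and 0.737 to 4.90 CPM. Of the 7 fibroblast markers tested 4 were called higher and 1 lower with BMP7, against 5.99% and 5.38% of all genes tested. The part of these markers in the ligand levels was not tested.

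*Frs2* encodes the docking protein that links the receptors to Ras. It lies on chromosome 10 from 116905332 to 116984439, and its levels were 72.6, 79.4 and 81.2 CPM in Ctrl and 73.9, 88.2 and 84.7 CPM in the BMP7 libraries. The groups overlapped through BMP7 library 1, which lay near the lowest Ctrl library. With BMP7 its log2 fold change was 0.09 (SE 0.07, 95% interval -0.07 to 0.24; adjusted p = 0.52, edgeR quasi-likelihood test, Benjamini-Hochberg), and in BMP7 library 1 alone it was -0.073. A stretch of 427 bases of its transcripts matches *Galnt1* at 95% identity or more, so some of its fragments may have been left out as mapping to several places.

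**Figure D3:**
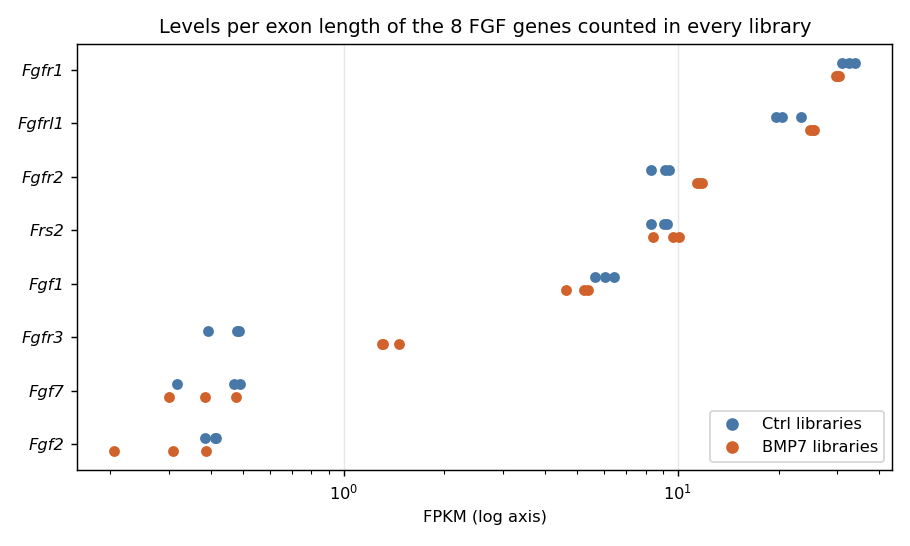
FPKM (log axis) of the 8 genes counted in every library, with 1 point for each of 3 Ctrl (blue) and 3 BMP7 (orange) libraries. *Fgfr1* and *Fgfrl1* lie highest, and *Fgfr3*, *Fgf7* and *Fgf2* lie together near 0.4 FPKM in Ctrl, whereas *Fgfr3* lies above both with BMP7.

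Set in 1 order per exon length, the Ctrl levels ran from *Fgfr1* through *Fgfrl1*, *Fgfr2*, *Frs2* and *Fgf1* to *Fgfr3*, *Fgf7* and *Fgf2*, then *Fgf10* and *Fgfr4*. *Fgfr2* and *Frs2* (8.89 ± 0.521 FPKM; SD, n = 3) overlapped in Ctrl and could not be ordered. *Fgf1*, at 6.04 ± 0.402 FPKM, lay 13.4-fold above *Fgfr3*, the widest step among the genes that passed the filter. *Fgfr3*, *Fgf7* (0.425 ± 0.0947 FPKM) and *Fgf2* (0.403 ± 0.0166 FPKM) overlapped in Ctrl. With BMP7 the order was the same, *Fgfr2* no longer overlapped *Frs2* (9.41 ± 0.855 FPKM), and *Fgfr3* lay 3.51-fold above *Fgf7* (0.386 ± 0.0873 FPKM).

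Over the 6 libraries, the 5 genes whose log2 CPM followed that of *Fgfr2* most closely, among the 14100 tested genes averaging 1 CPM or more, were *Mycl*, *Atp6v1e1*, *Pthlh*, *Alg11* and *Arhgef37*. Their Pearson correlations with *Fgfr2* were 0.999, 0.997, 0.996, 0.996 and 0.995. These values describe 6 points that share the group difference, and they are the top of a long list. *Mycl*, with a log2 fold change of 0.61, and *Atp6v1e1*, with 0.29, were called higher, whereas *Pthlh* (0.60), *Alg11* (0.04) and *Arhgef37* (0.27) were not called.

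Beyond the 10 genes, 77 other genes of the pathway were listed in 8 groups, of which 67 had a fragment and 54 were tested. Of the 54, 3 were called higher and 6 lower, 16.7% of them against 11.4% of all genes tested, with a median log2 fold change of -0.03 against -0.01 for all genes tested. Of the 14 other FGF ligands, 6 had a fragment and none passed the filter. *Fgf21*, a metabolic hormone and the highest of them per length, reached 0.325 ± 0.121 FPKM in Ctrl (SD, n = 3). That level rests on only 5, 9 and 5 fragments over 951 bases of exon, with 2, 0 and 8 in BMP7 libraries 1, 3 and 4. Of the 4 intracellular FGF homologous factors, which do not act through the receptors, 2 were tested and none was called. *Fgf13* was the higher, at 3.01 ± 0.234 FPKM in Ctrl with a log2 fold change of -0.04.

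None of the 5 tested co-receptors and FGF-binding proteins was called, nor were any of the 11 adaptors or the 10 genes of the Ras-MAPK cascade. *Glg1*, which encodes a Golgi protein that binds FGFs, was at 513 ± 19.3 CPM in Ctrl and 498 ± 39.9 CPM with BMP7. *Grb2*, the adaptor between FRS2 and the Ras exchange factor SOS, was at 229 ± 7.25 CPM and 241 ± 2.31 CPM (SD, n = 3). *Mapk3*, which encodes ERK1, and *Map2k1*, which encodes its kinase MEK1, passed the adjusted p but not the fold limit, with log2 fold changes of 0.20 (adjusted p = 0.038) and 0.23 (adjusted p = 0.049, both edgeR quasi-likelihood test, Benjamini-Hochberg). *Map2k1* was named after its value was seen.

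Of 12 tested genes for heparan sulfate synthesis and editing, 2 rose and none fell, where 5.99% of all genes tested were called higher. *Hs3st3b1*, which encodes a 3-O-sulfotransferase, was at 12.95, 11.4 and 14.4 CPM in Ctrl and 31.1, 32.6 and 27.9 CPM in BMP7 libraries 1, 3 and 4. The groups were far apart, with a log2 fold change of 1.24 (SE 0.10; adjusted p = 3.3e-07, edgeR quasi-likelihood test, Benjamini-Hochberg). It shares a 774-base stretch of near-identical sequence with *Hs3st3a1*, so its count is uncertain there. *Hs2st1*, which encodes the 2-O-sulfotransferase that makes sites FGFs bind, rose by 0.30 on the log2 scale (SE 0.06), with means of 75.0 ± 4.33 CPM in Ctrl and 92.2 ± 1.24 CPM with BMP7 (SD, n = 3), and fell short of the fold limit without Ctrl library 3, at 0.26.

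Among 10 tested targets and feedback inhibitors of ERK signaling, 5 fell and 1 rose, where 5.38% of all genes tested were called lower and 5.99% higher, with a median log2 fold change of -0.42. *Etv5*, an ETS transcription factor of the PEA3 group, was at 15.1, 28.5 and 20.9 CPM in Ctrl and 7.04, 7.24 and 5.34 CPM with BMP7. The Ctrl libraries were spread widely but all above the BMP7 libraries, and the log2 fold change was -1.71 (SE 0.19; adjusted p = 1.0e-05, edgeR quasi-likelihood test, Benjamini-Hochberg). *Gm4798*, with which it shares 1700 bases of near-identical sequence, was lower by -1.24, so the reads of either are uncertain. The phosphatase gene *Dusp6* was at 53.7 ± 8.52 CPM in Ctrl and at 34.1 ± 2.14 CPM with BMP7, and it fell by 0.65 on the log2 scale (SE 0.10). *Spry1*, a Sprouty inhibitor, fell by 0.72 on the log2 scale from 6.84 ± 0.433 CPM, and of its exon bases 24.4% are shared with *Gm42922*. *Etv4* and the receptor inhibitor *Il17rd* had log2 fold changes of -0.43 and -0.86, and these calls were lost in 4 and 7 of 12 alternatives.

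*Spred2*, an inhibitor of Ras activation, went the other way, from 73.2, 83.8 and 74.3 CPM in Ctrl to 118, 131 and 111 CPM in BMP7 libraries 1, 3 and 4. The log2 fold change was 0.64 (SE 0.07; adjusted p = 1.4e-05, edgeR quasi-likelihood test, Benjamini-Hochberg). Of the 4 splicing factors that act on the IIIb and IIIc exons, 1 was called lower, where 5.38% of all genes tested were. This was *Esrp2*, which favours the epithelial form. It fell from 135 ± 7.18 to 105 ± 8.23 CPM (SD, n = 3), with a log2 fold change of -0.35 (SE 0.07). Of its exon bases 21.4% are shared with *1810019D21Rik* and *Nfatc3*. Its paralog *Esrp1*, named after its value was seen, was at 392 ± 6.44 CPM in Ctrl and 370 ± 21.3 CPM with BMP7. It was not called. *Rbfox2* and *Ptbp1*, also named after their values were seen, had log2 fold changes of 0.05 and 0.03 and were not called.

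**Figure D4:**
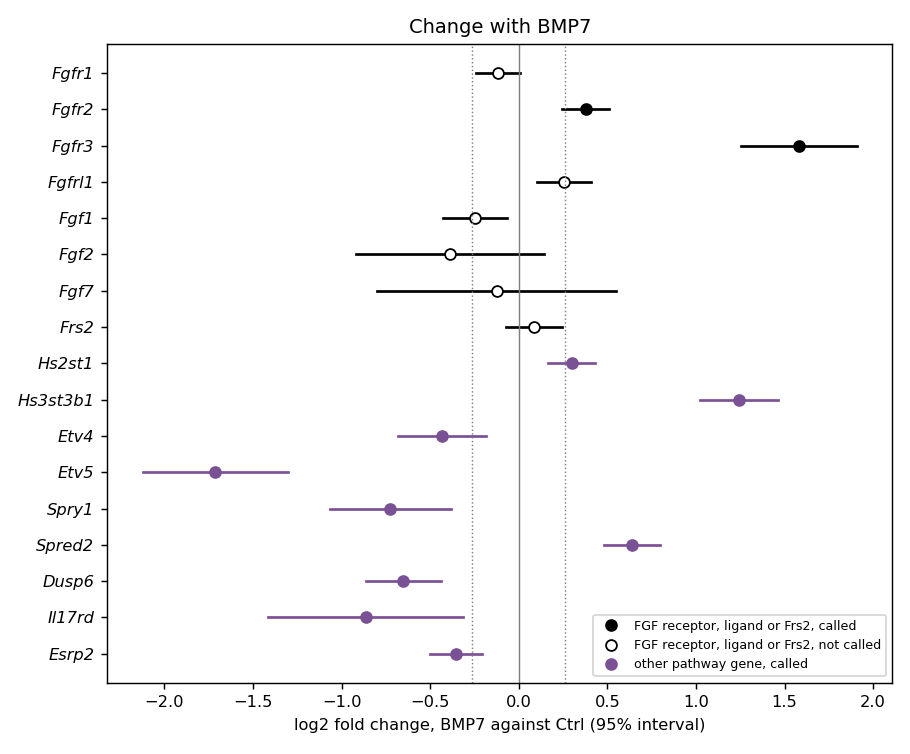
Log2 fold change with BMP7 against Ctrl for the 8 tested FGF genes (black, filled where called) and the 9 called genes of the other pathway lists (purple), with 95% intervals. Dotted lines mark a fold change of 1.2 in either direction. *Fgfr3* (1.58) and *Hs3st3b1* (1.24) lie farthest to the right and *Etv5* (-1.71) farthest to the left.

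*Fgfr2* and *Fgfr3* kept their calls under all 12 alternatives of tool, scaling, filter and libraries, at log2 fold changes of 0.32 to 0.41 and 1.49 to 1.69. In BMP7 library 1 alone against the Ctrl libraries they were 0.35 and 1.69 and both called, by a fit that assumes the lone library varies like the Ctrl libraries. That library was the lowest of the BMP7 libraries in *Fgfr2*, *Fgf1*, *Fgf2*, *Fgf7* and *Frs2* and the highest in *Fgfr3*.

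**Figure D5:**
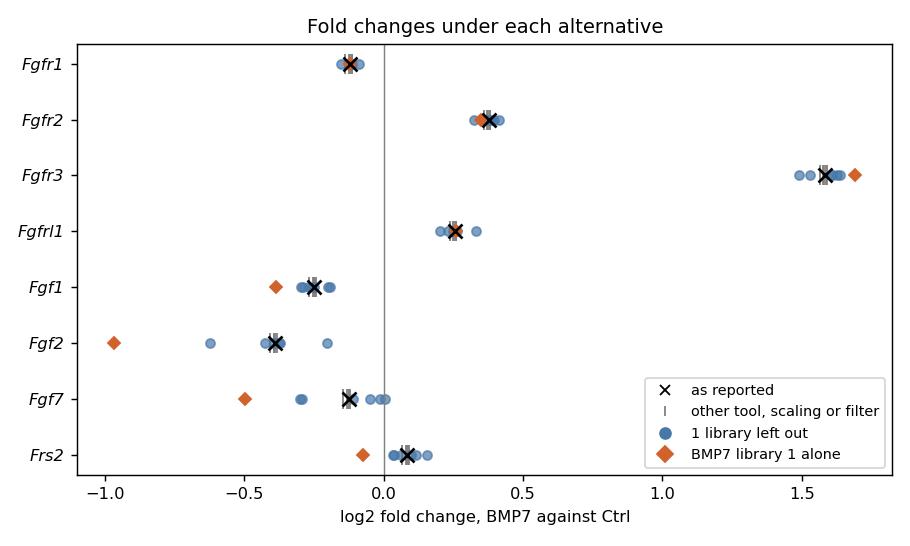
Log2 fold change of each of the 8 tested FGF genes as reported (crosses) and in 12 alternatives (ticks for another tool, scaling or filter, circles for 1 library left out, diamonds for BMP7 library 1 alone). *Fgfr2*, *Fgfr3* and *Fgfrl1* stay above 0 and *Fgfr1*, *Fgf1* and *Fgf2* below 0 in all of them, whereas *Fgf7* and *Frs2* cross 0 in 1 alternative each.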

How the data were processed

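RNA of 6 libraries of HC11 cells was sequenced. Per the study's methods, the authors aligned read pairs with subjunc (Subread 2.0.3) to mm10. Per the file headers, they counted fragments on exons by gene name with featureCounts 2.0.1 on an annotation named mm39, without strand, leaving out fragments mapped to several places or genes. The deposited values are counts without normalization, with the exon length of each gene, and 0 columns of samples were left unused. The difference between the named builds was not resolved, and coordinates of genes are those of the deposited table.

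Groups came from the labels. The BMP7 columns carry the numbers 1, 3 and 4 and the labels 1, 2 and 3, so columns were assigned to the group alone. Counts were tested with edgeR 4.0.16 (R 4.3.3): filterByExpr with a minimum count of 10, TMM scaling, a quasi-likelihood fit of group over all 6 libraries and Benjamini-Hochberg adjustment. The methods name DESeq2 (1.42.0 here), which was run as an alternative. CPM used TMM-scaled totals and FPKM also the exon length. Permutation tests used the log2 of the FPKM ratio or of the summed FPKM, and correlations used log2 CPM with a prior count of 2. SE is the log2 fold change over the square root of F. The fit was tested on simulated data. Sequences came from RefSeq tables, from which promoters of 8 of the 10 genes were taken. Near-identical transcripts were sought with BLAST 2.17.0 (at least 95% identity over 100 bases).

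Named were the 10 genes, the called genes of the other pathway lists, for a list without calls the gene highest in Ctrl FPKM, and the 5 genes most correlated with *Fgfr2*. The genes and the lists were chosen with earlier results of these data known. The alternatives were DESeq2, RLE and upper-quartile scaling, 2 other filters, leaving out each library, BMP7 library 1 alone, other fold limits and other scalings of levels. After the data were seen, the libraries numbered 1 and 3 in both groups were also fitted with and without the number as a block. Floors for counts cover counting error only, and intervals of fold changes include the spread between libraries.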

Additional observations from a re-analysis of the deposited data

How the results depend on the processing

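*Fgfr2* and *Fgfr3* were called in all 12 alternatives, and *Fgfr1* and *Fgf2* were called in none. *Fgfrl1* was called without Ctrl library 3, at a log2 fold change of 0.33 (range 0.20 to 0.33 when each library was left out), and its adjusted p was over 0.05 in 4 of those 6 fits, from 0.0501 without BMP7 library 1 to 0.15 without Ctrl library 2. *Fgf1* was called with upper-quartile scaling, at -0.27. *Fgf7* turned to 0.0044 without BMP7 library 1 (range -0.30 to 0.0044), and *Frs2* to -0.073 in BMP7 library 1 alone. The cause was not tested. Of the 10 FGF genes, 1 was called higher at a fold limit of 1.5 and 1 lower with upper-quartile scaling, against 2 and 0 as reported. Of the other pathway genes, 5 were higher by adjusted p alone, against 3. Of all genes, 476 were higher and 304 lower at a fold limit of 1.5, against 942 and 846, since that limit keeps only larger changes. The order of Ctrl levels changed for 0 to 6 genes when a Ctrl library was left out, among genes whose ranges overlapped. It changed for 6 without library 1 and 2 without library 3. Those 6 include *Fgf10* and *Fgfr4*, both at 0 without library 1, so that their places were only tied. TPM, which rescales each library, gave levels 2.40 to 2.84 times the FPKM and the same order. *Etv4* lost its call in 4 alternatives, *Il17rd* in 7, and *Hs2st1* and *Spry1* in 1 each. The column numbers 1 and 3 occur in both groups, but the BMP7 column numbers (1, 3, 4) are not those of the labels (1, 2, 3), so whether a number marks a shared culture is not known. Deviations from the group means correlated at -0.01 (number 1) and 0.12 (number 3) over 15733 genes. A fit of those 4 libraries with the number as a replicate block, chosen after seeing the data, called *Fgfr3* at 1.52, *Fgfr2* at 0.31 and *Fgf1* lower at -0.34, so that 1 of the FGF genes was called lower, and 1084 of all genes higher and 853 lower. Without the block the same libraries gave 801 and 576, and *Fgf1* was not called. With 3 libraries a group, permutation tests could not go below 0.1, and at 14 to 59 counts a library *Fgf2* and *Fgf7* had wide intervals.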
